A study of Homo sapiens with 4 samples.

Results

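The genes described here are 40 genes of glycolysis and of the hypoxia response, found as rows of a raw count table of 61806 genes. The list was drawn up by name from published knowledge of the pathway, but with earlier results of these data known. Each of the 40 names matched 1 row. They were followed in 4 RNA-seq libraries of U251-MG, an established human glioblastoma cell line grown in culture. In 2 libraries, called COL8A1, the cells had been infected with a lentivirus made from the pCDH-CMV-MCS-EF1-puro vector with the COL8A1 cDNA in it, which encodes a chain of collagen VIII. In the other 2, called NC, the cells carried a negative control lentivirus of the same kind. All 4 libraries are labelled as wild type in genotype. Whether the infected cells were a pool or a clone, and whether replicates are separate cultures, is not in the labels. The p-values therefore measure only how far these 4 libraries spread, and that spread may be technical. The labels also give no oxygen level for the culture.

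Glycolysis breaks glucose down to pyruvate in the cytosol, and lactate dehydrogenase turns pyruvate into lactate, which leaves the cell through monocarboxylate transporters. Hypoxia-inducible factor (HIF) is a dimer of an oxygen-labile alpha subunit and the stable partner ARNT. When oxygen is present, prolyl hydroxylases (EGLN1, EGLN3) mark the alpha subunit and the VHL ubiquitin ligase removes it. When oxygen is short, HIF binds DNA at a short core motif and switches on glucose transporters, glycolytic enzymes and a set of other genes such as CA9, a carbonic anhydrase used as a hypoxia marker of glioblastoma. HIF activity is set largely at the protein level, which transcript counts do not measure.

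The total count per library lay between 27923796 and 33576228. COL8A1 itself had 4290 and 2259 counts in COL8A1 replicates 1 and 2, against 77 and 82 counts in NC replicates 1 and 2, which fits the labels. As CPM, the usual read count scaled to library size (here with TMM factors), that is 108 ± 37.9 in COL8A1 cells and 2.47 ± 0.055 in NC cells (SD, n = 2 each), and the level in COL8A1 replicate 1 was 1.66-fold that in replicate 2. The difference had an adjusted p of 0.0681 in edgeR and of 1.35e-81 in DESeq2, and both COL8A1 libraries were above both NC libraries. Of the glial markers listed, VIM, NES and CD44 were at 391.6 to 3145 CPM in each library, while GFAP and S100B were at 0.56 to 2.58 CPM. Of the leukocyte genes, AIF1 and CD3E had 0 counts, CD68 was at 3.37 to 5.55 CPM in each library, and PTPRC did not exceed 0.189 CPM. The endothelial gene CDH5 stood at 60.1 to 78.3 CPM, although PECAM1 and VWF were at 0.18 to 1.27 CPM. Of the epithelial genes, the keratins KRT8 and KRT18 stood at 88.3 to 399 CPM, although EPCAM and CDH1 did not exceed 0.283 CPM. The astrocyte transporter SLC1A3 had 52.8 and 59.2 CPM in COL8A1 libraries, against 27.3 and 27.2 CPM in NC libraries (DESeq2 adjusted p = 1.44e-08, edgeR adjusted p = 0.165). GFAP had 2.05 and 1.84 CPM in COL8A1 libraries, against 0.685 and 0.564 CPM in NC libraries (edgeR adjusted p = 0.580). SOX9, NCAM1 and NES also had both COL8A1 libraries above both NC libraries, so that 5 of the 8 glial markers did, where 18.9% of all genes tested did. The adjusted edgeR p-values of SOX9, NCAM1 and NES were 0.690, 0.825 and 0.835, and GFAP rested on 19 to 65 counts per library. The part of these markers in the results below was not tested.

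No member passed the threshold. Differences between COL8A1 and NC cells were tested with edgeR's quasi-likelihood F-test over all 17030 genes that passed the low-count filter, with p-values adjusted by Benjamini and Hochberg and a threshold of 0.05. Of the 40 members 39 were tested, and 0 passed, against 2 of all genes tested (0.0117%). The smallest adjusted edgeR p among the members was 0.756. At an unadjusted p under 0.05 there were 2 members, ENO1 and PKM, both higher in COL8A1 cells, against 6.07% of all genes tested (3.44% higher and 2.63% lower). This count and its names changed with the processing: it was 0 to 9 members with a library left out, and with the replicate number as a block it was PKM and TPI1, the second of them lower in COL8A1 cells. ENO1 had an unadjusted p of 0.0581 with the block in edgeR and of 0.217 in DESeq2. SLC16A1, lower in COL8A1 cells, was under 0.05 in edgeR with library size alone (unadjusted p = 0.0438) and without the low-count filter (0.0367). Without that filter VHL, which was higher, was under it too (0.0368). With a filter of 1 CPM in 2 libraries SLC16A1 was under 0.05 (edgeR unadjusted p = 0.0499) and PKM was not (0.0503). In limma-voom SLC16A1 had an unadjusted p of 0.0408. DESeq2 also called 0 members, against 0.756% of the genes it adjusted, and gave 1 member, VHL, an unadjusted p under 0.05.

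Log2 fold changes of the members (COL8A1 over NC) ran from −0.49 for CA9 to 0.93 for VHL. Their median was 0.003, with 20 above and 19 below 0, and the median of all genes tested was 0.001. For 32 of the 39 members the 95% interval of the fold change lay inside 1 on either side of 0, so that a 2-fold difference lay outside it. The 7 wider ones were VHL, EGLN3, SLC2A1, ALDOC, SLC16A3, CA9 and CA12, of which all but CA12 had libraries of a group over 2-fold apart.

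**Figure D1:**
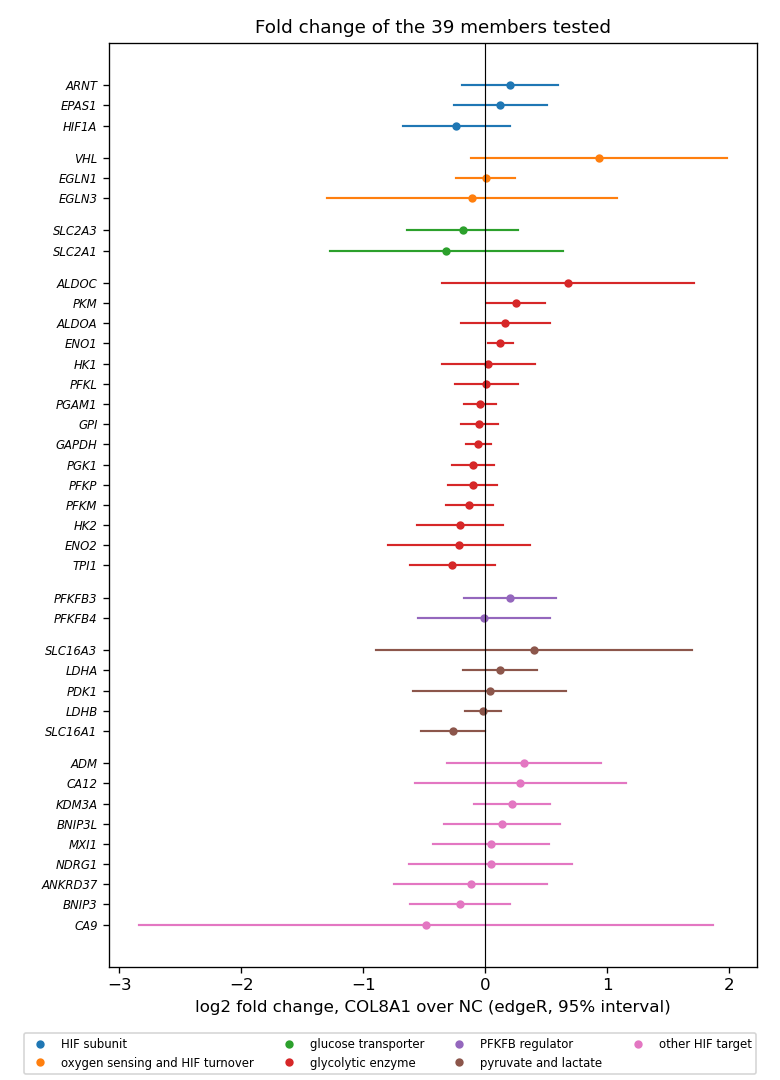
Log2 fold change of each tested member, COL8A1 over NC, with the 95% interval from the edgeR fit (n = 2 libraries per group), coloured by role. The intervals of ENO1 and PKM lie above 0 and those of most glycolytic enzymes are narrow, while those of CA9, EGLN3, SLC16A3, SLC2A1, VHL and ALDOC are wide.

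Members do not overlap between groups when both COL8A1 libraries lie on the same side of both NC libraries. This held for 4 members that were higher in COL8A1 cells (VHL, ENO1, PKM and KDM3A), where 18.9% of all genes tested did so, and for 10 that were lower, where 18.6% did. The 10 were HIF1A, SLC16A1 and 8 of the 15 glycolytic enzymes. The shares of the members were 10.3% and 25.6%.

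Apart from sums of CPM or counts and shares of them, levels are compared between genes as CPM per kilobase of annotated exon (all exons of GENCODE release 29 merged). Merged exons can be longer than the transcripts a cell makes, so levels and shares on this scale depend on the annotation. On this scale the members spanned more than 3 orders of magnitude. GAPDH was at 1736 in COL8A1 and 1804 in NC cells and stood highest, and CA12, a second carbonic anhydrase, was at 0.30 and 0.25 and stood lowest of those with counts. ANGPTL4, a secreted lipase inhibitor and HIF target, had 0 counts in all 4 libraries. A count of 0 allows up to 3 counts, or 0.0944 to 0.108 CPM in the COL8A1 and 0.0890 to 0.0978 CPM in the NC libraries, for counting error only.

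**Figure D2:**
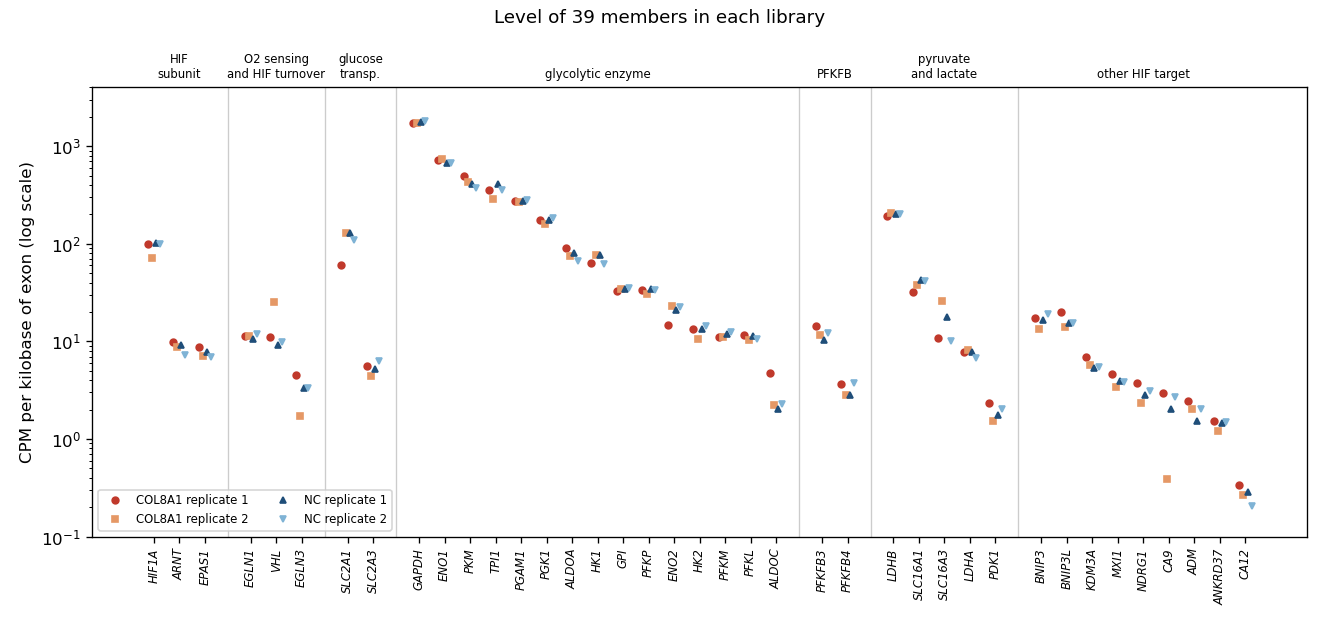
CPM per kilobase of exon on a log axis for the 39 members with counts, grouped by role and shown for each library. The 4 libraries coincide for most glycolytic enzymes, while 1 COL8A1 library stands off for SLC2A1, VHL, EGLN3, ALDOC and CA9.

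Promoter sequences are shown for the members whose transcripts the results turn on and that hold the HIF core motif, namely ENO1 and PKM, which had unadjusted p-values under 0.05, and CA9, SLC2A1 and ALDOC, whose COL8A1 libraries differed over 2-fold. The core was searched as ACGTG or GCGTG on both strands (so also as CACGT or CACGC) in the 300 bases from 250 before to 50 after the RefSeq gene start (GRCh38.p14). Of the 40 members, 35 had such a window and 25 of these (71.4%) held the core, against 48.4% of all 35116 windows. The 35116 windows were not matched to the members in base content or expression, and the difference in shares was not tested. A match is only a run of letters, not a bound site. Each sequence runs 5′ to 3′ on the gene's strand, with the core in capitals. The windows lie at chr1:8878637-8878936 (ENO1, minus strand), chr15:72231141-72231440 (PKM, minus), chr9:35673678-35673977 (CA9, plus), chr1:42958819-42959118 (SLC2A1, minus) and chr17:28576846-28577145 (ALDOC, minus).
ENO1: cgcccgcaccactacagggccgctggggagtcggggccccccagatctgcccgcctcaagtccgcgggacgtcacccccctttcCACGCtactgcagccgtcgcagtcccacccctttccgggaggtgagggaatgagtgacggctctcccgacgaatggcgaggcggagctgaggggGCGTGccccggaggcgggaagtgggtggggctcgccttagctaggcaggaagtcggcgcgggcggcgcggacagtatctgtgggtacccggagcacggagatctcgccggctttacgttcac
PKM: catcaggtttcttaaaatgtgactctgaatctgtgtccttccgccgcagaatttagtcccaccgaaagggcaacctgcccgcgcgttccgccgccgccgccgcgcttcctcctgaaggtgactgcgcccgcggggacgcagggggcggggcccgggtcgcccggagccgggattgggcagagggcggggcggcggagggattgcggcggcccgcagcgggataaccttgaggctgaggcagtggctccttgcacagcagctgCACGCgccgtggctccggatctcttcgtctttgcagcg
CA9: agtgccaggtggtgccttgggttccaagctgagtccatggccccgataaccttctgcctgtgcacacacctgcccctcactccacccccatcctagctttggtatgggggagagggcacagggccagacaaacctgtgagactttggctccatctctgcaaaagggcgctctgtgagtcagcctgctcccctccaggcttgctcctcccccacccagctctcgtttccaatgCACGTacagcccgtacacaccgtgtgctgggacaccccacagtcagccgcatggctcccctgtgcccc
SLC2A1: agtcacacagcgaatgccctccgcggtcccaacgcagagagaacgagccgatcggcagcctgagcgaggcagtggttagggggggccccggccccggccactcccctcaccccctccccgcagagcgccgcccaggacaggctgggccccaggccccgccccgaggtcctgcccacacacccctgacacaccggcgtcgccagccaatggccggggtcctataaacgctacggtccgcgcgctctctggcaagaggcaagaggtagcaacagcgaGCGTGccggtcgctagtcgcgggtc
ALDOC: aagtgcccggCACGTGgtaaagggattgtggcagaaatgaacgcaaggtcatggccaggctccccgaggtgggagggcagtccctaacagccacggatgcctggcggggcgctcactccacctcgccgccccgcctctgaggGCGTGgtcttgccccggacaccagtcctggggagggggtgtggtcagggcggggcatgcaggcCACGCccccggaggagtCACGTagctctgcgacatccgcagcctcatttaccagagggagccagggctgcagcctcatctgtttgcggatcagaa
In ENO1 the cores began 166 and 72 bases before the start. CA9 held its core 18 bases before the start, in the stretch where the gene's hypoxia response element is known to lie. In PKM and SLC2A1 the only core began 13 and 26 bases into the transcript. ALDOC held 4 separate cores, the farthest of them the palindrome CACGTG, which reads as the core on both strands and is also the E-box of other transcription factors. The windows of EGLN3 and SLC16A3, whose COL8A1 libraries also differed over 2-fold, held no core. For VHL, whose COL8A1 libraries differed over 2-fold as well, no window was available to search.

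Among the HIF subunits, HIF1A was the most abundant alpha subunit. HIF1A (ENSG00000100644; chromosome 14, 61695513 to 61748259, plus strand, hg38) had 514 and 368 CPM in COL8A1 replicates 1 and 2, against 523 and 515 CPM in NC replicates 1 and 2. Only COL8A1 replicate 2 stood clearly below the rest, and the log2 fold change of −0.24 (SE 0.167) had an adjusted edgeR p of 0.852. Without that library it was −0.018. EPAS1, which encodes HIF-2 alpha, had 64.4 and 51.8 CPM in the COL8A1 libraries, against 56.8 and 49.96 CPM in the NC libraries, and the groups overlapped. ARNT overlapped as well, with 64.5 and 57.6 CPM in COL8A1 and 59.2 and 46.7 CPM in NC libraries. Per kilobase, HIF1A made up 91.4 ± 0.65% of the 2 alpha subunits in COL8A1 and 93.2 ± 0.50% in NC cells (SD, n = 2 each).

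The oxygen-sensing genes split into a steady one and 2 uneven ones. EGLN1, the main prolyl hydroxylase, had 81.9 and 83.2 CPM in COL8A1 libraries, against 77.5 and 87.3 CPM in NC libraries (log2 fold change 0.003, 95% interval −0.24 to 0.24). EGLN3, a hydroxylase that HIF itself induces (ENSG00000129521; chromosome 14, 33924231 to 34462774, minus strand), was at 32.9 and 12.7 CPM in COL8A1 replicates 1 and 2, against 24.7 and 24.6 CPM in the NC libraries. The 2 NC libraries nearly coincided between the COL8A1 libraries, which lay 2.60-fold apart. The log2 fold change of −0.11 (SE 0.453) became 0.42 without COL8A1 replicate 2 and −0.96 without COL8A1 replicate 1.

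VHL (ENSG00000134086; chromosome 3, 10141008 to 10152220, plus strand) had 46.8 and 107 CPM in COL8A1 replicates 1 and 2, against 39.1 and 41.2 CPM in NC replicates 1 and 2. Both COL8A1 libraries were above both NC libraries, and replicate 2 was 2.29-fold above replicate 1. Its log2 fold change of 0.93 (SE 0.399) was the largest of the members and missed the threshold (edgeR unadjusted p = 0.0703, adjusted p = 0.825; DESeq2 adjusted p = 0.351). It was 0.22 without COL8A1 replicate 2 and 1.41 without COL8A1 replicate 1. No counted gene of GENCODE release 29 shared exons with VHL.

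Glucose enters through SLC2A1 (GLUT1), the main transporter here, and SLC2A3 (GLUT3), its neuronal counterpart. SLC2A1 (ENSG00000117394; chromosome 1, 42925375 to 42959176, minus strand) was at 289.6 and 615 CPM in COL8A1 replicates 1 and 2, against 606 and 521 CPM in NC replicates 1 and 2. COL8A1 replicate 1 alone stood low, at less than all other libraries, while replicate 2 was the highest of the 4. Its log2 fold change of −0.32 (SE 0.363; edgeR adjusted p = 0.897) became 0.12 without COL8A1 replicate 1. SLC2A3 had 34.8 and 27.2 CPM in COL8A1 and 31.9 and 38.6 CPM in NC libraries and the groups overlapped. Per kilobase, SLC2A1 was 91.6% to 96.7% of the 2 transporters in the COL8A1 and 94.6% to 96.1% in the NC libraries.

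The 15 glycolytic enzymes took 1.66% to 1.76% of all counts in the COL8A1 and 1.65% to 1.66% in the NC libraries. Their summed level was 17083 ± 569.95 CPM in COL8A1 and 16617 ± 220.1 CPM in NC cells (SD, n = 2 each), a difference smaller than the SD of the COL8A1 libraries. GAPDH, ENO1 and PKM made up 75.9% and 76.2% of this sum in COL8A1 replicates 1 and 2 and 73.3% and 74.1% in NC replicates 1 and 2. The sum is not scaled to exon length, so long transcripts weigh more in it. The median log2 fold change of the enzymes was −0.05, with 6 above and 9 below 0. For 10 of the 15, the 95% interval lay inside 0.5 on either side of 0.

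The 2 enzymes near the end of the pathway had the smallest p-values. ENO1 (ENSG00000074800; chromosome 1, 8861000 to 8879250, minus strand), an enolase, which makes phosphoenolpyruvate, had 3843 and 3880.0 CPM in COL8A1 libraries, against 3512 and 3581 CPM in NC libraries. The groups did not overlap and each pair of libraries lay close together, so that a log2 fold change of 0.12 (SE 0.039, 95% interval 0.020 to 0.23) reached an unadjusted p of 0.0281 in edgeR, with an adjusted p of 0.756. PKM (ENSG00000067225; chromosome 15, 72199029 to 72231822, minus strand), the pyruvate kinase of proliferating and of muscle cells, which yields pyruvate and ATP, had 4238 and 3660.4 CPM in COL8A1 libraries and 3477 and 3165 CPM in NC libraries. Its log2 fold change was 0.25 (SE 0.091; edgeR unadjusted p = 0.0433, adjusted p = 0.804), and both COL8A1 libraries were above both NC libraries. Counts per gene do not separate the M1 and M2 splice forms of PKM.

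Upstream of enolase, 8 enzymes lay on the other side without passing the test, but HK1, PFKL, ALDOA and ALDOC did not. The log2 fold changes of HK1, PFKL, ALDOA and ALDOC were 0.026, 0.009, 0.16 and 0.68, and their groups overlapped. In HK2, GPI, PFKM, PFKP, TPI1, GAPDH, PGK1 and PGAM1 both COL8A1 libraries lay below both NC libraries, 53.3% of the 15 enzymes where 18.6% of all genes tested did so. The enzymes are counted in the same libraries, so these are not separate observations. The differences were small, with log2 fold changes from −0.27 for TPI1 to −0.04 for PGAM1 and adjusted edgeR p-values from 0.835 to 0.902. PFKM overlaps SENP1 on the other strand, whose counts were 66.5% of its own. GAPDH, which oxidises glyceraldehyde 3-phosphate and often serves as a reference gene, had 5182 and 5167 CPM in COL8A1 libraries, against 5306 and 5451 CPM in NC libraries (log2 fold change −0.06, 95% interval −0.16 to 0.04). TPI1, triose-phosphate isomerase, had 956 and 768 CPM in COL8A1 and 1114 and 963 CPM in NC libraries. PGAM1, phosphoglycerate mutase, had 696 and 687 CPM in COL8A1 and 707 and 718 CPM in NC libraries. HK2, the hexokinase that many tumours induce, had 80.3 and 64.2 CPM in COL8A1 and 80.5 and 86.2 CPM in NC libraries. The gap for HK2 was thus nearly closed in COL8A1 replicate 1.

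**Figure D3:**
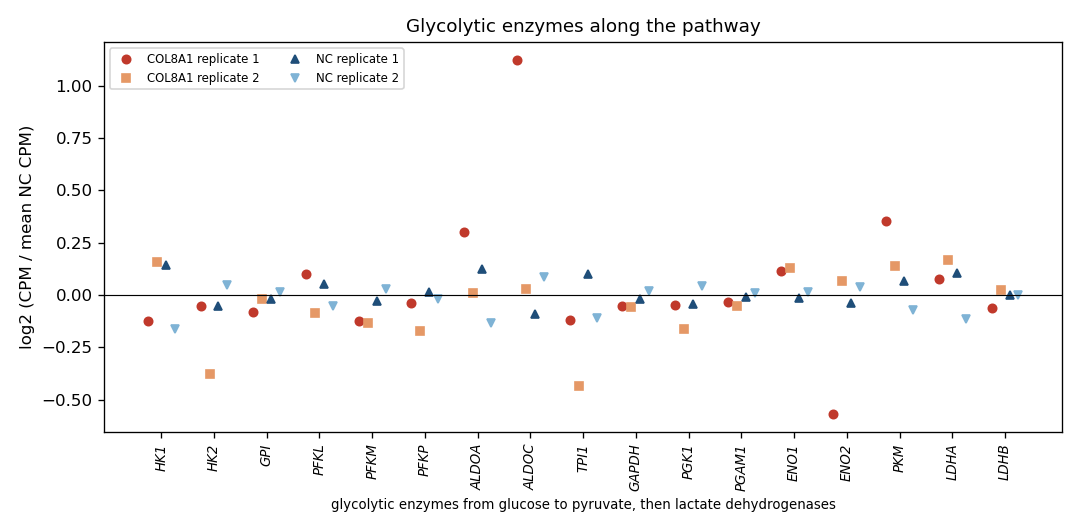
Log2 of CPM over the mean CPM of the NC libraries for the glycolytic enzymes in pathway order and the 2 lactate dehydrogenases, 1 point per library. ENO1 and PKM have both COL8A1 libraries above 0, GAPDH and PGAM1 sit just below it, and ALDOC and ENO2 show a lone point of COL8A1 replicate 1.

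Within enzyme families the isoenzymes are given as shares of CPM per kilobase. These shares depend on the merged exon lengths, such as 4836 bases for PFKP against 8926 for PFKL and 7318 for PFKM. HK1 was 85.3 ± 3.69% of the hexokinases HK1 and HK2 in COL8A1 and 83.2 ± 2.76% in NC cells (SD, n = 2 each). Of the phosphofructokinases, which commit sugar to glycolysis, the platelet form PFKP held 59.0 ± 0.40% in COL8A1 and 59.7 ± 0.20% in NC cells. ENO1 was 97.5 ± 0.73% of the enolases ENO1 and ENO2 in COL8A1 and 96.9 ± 0.069% in NC cells. Each of these differences was less than the sum of the SDs of its groups, except that of PFKP.

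ALDOC, the brain aldolase (ENSG00000109107; chromosome 17, 28573115 to 28577264, minus strand), was at 13.9 and 6.52 CPM in COL8A1 replicates 1 and 2, against 6.0 and 6.76 CPM in NC replicates 1 and 2. Only COL8A1 replicate 1 was high (log2 fold change 0.68, SE 0.392, edgeR adjusted p = 0.835), and without it the value was 0.030. ENO2, the neuronal enolase, went the other way in the same library, with 62.7 and 97.5 CPM in COL8A1 and 90.6 and 95.4 CPM in NC libraries. ALDOA, the main aldolase, had 355 and 290.2 CPM in COL8A1 and 314 and 262 CPM in NC libraries, and the groups overlapped. Another counted gene shares exons with ALDOA on the same strand, and the CPM of both together were 580.5 and 544 in COL8A1 and 564 and 555 in NC libraries. The spread of ALDOA was thus smaller once the reads of both genes were summed.

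PFKFB3 and PFKFB4 make and break fructose 2,6-bisphosphate, the activator of phosphofructokinase. PFKFB3 had 87.7 and 70.8 CPM in COL8A1 and 63.7 and 73.7 CPM in NC libraries, and PFKFB4 had 22.2 and 17.3 CPM in COL8A1 and 17.1 and 22.7 CPM in NC libraries. Both overlapped between the groups.

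In the deposited counts lactate dehydrogenase was mostly LDHB, the form that favours pyruvate, but the level of LDHA is uncertain. LDHB had 574 and 610.2 CPM in COL8A1 and 600.04 and 599 CPM in NC libraries (log2 fold change −0.02, 95% interval −0.17 to 0.13). LDHA, the form that favours lactate and a classical HIF target, had 47.8 and 51.0 CPM in COL8A1 and 48.9 and 41.9 CPM in NC libraries. Per kilobase LDHA made up 3.85 ± 0.0086% of the pair in COL8A1 and 3.51 ± 0.366% in NC cells (SD, n = 2 each). LDHA has processed copies elsewhere in the genome, and reads that fit several places may not have been counted. The 6 copies named after it in the table held 5 to 20 counts per library together, and how far this lowers the count of LDHA was not tested. The LDHA level is low for a glioblastoma line, and the share of the isoforms carries the same doubt.

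Lactate carriers differed in how well their libraries agreed. SLC16A1 (MCT1) had 170.0 and 202 CPM in COL8A1 libraries, against 223 and 222 CPM in NC libraries. The groups did not overlap, and the log2 fold change was −0.26 (SE 0.0996; edgeR unadjusted p = 0.0501, adjusted p = 0.816). SLC16A3 (MCT4), the exporter that hypoxia induces (ENSG00000141526; chromosome 17, 82228397 to 82261129, plus strand), had 96.4 and 234 CPM in COL8A1 replicates 1 and 2, against 159 and 91.3 CPM in NC replicates 1 and 2. Its libraries were uneven in both groups and the groups overlapped (log2 fold change 0.40, 95% interval −0.90 to 1.69). SLC16A3 overlaps CSNK1D on the other strand, and the strand setting of the counting is not given in the sources used here. PDK1, the kinase that shuts pyruvate out of mitochondria, had 35.1 and 22.5 CPM in COL8A1 and 26.0 and 30.2 CPM in NC libraries.

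The other HIF targets showed a gap between the 2 COL8A1 libraries. They are CA9 and CA12, which regulate pH, ADM, a vasodilator peptide, and BNIP3 and BNIP3L, which mark mitochondria for autophagy. NDRG1 is a stress-induced growth regulator, KDM3A a histone demethylase, MXI1 an antagonist of MYC, and ANKRD37 a small ankyrin protein. In all 9 that were tested, COL8A1 replicate 1 was above COL8A1 replicate 2, by 1.19-fold to 7.62-fold with a median of 1.29, where 50.7% of all genes tested had replicate 1 above. The same order held in 28 of all 39 members tested (71.8%), these 9 included. Among the rest were 11 of the 15 glycolytic enzymes, all 3 HIF subunits, both PFKFB genes and 1 of 2 glucose transporters. It held in only 1 of 5 pyruvate and lactate genes and 1 of 3 oxygen-sensing genes. Some other roles thus shared it and some did not. Known HIF targets placed in other roles went both ways. COL8A1 replicate 1 was below replicate 2 in SLC2A1, SLC16A3 and LDHA, and above it in EGLN3, SLC2A3, HK2, PFKFB3, PFKFB4 and PDK1. For NC, replicate 1 was above replicate 2 in 3 of the 9. In 5 of the 9, COL8A1 replicate 1 was the highest and COL8A1 replicate 2 the lowest of the 4 libraries (55.6%), against 8.85% of all genes tested. The 9 genes are counted in the same libraries, so they are not separate observations of this gap.

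The median log2 deviation of these 9 genes from their mean over the libraries was 0.29 and −0.20 in COL8A1 replicates 1 and 2, against 0.0017 and 0.039 in NC replicates 1 and 2. The NC libraries thus lay close together between the 2 COL8A1 libraries. The summed level of the 10 genes of the list was 349 and 259.5 CPM in COL8A1 and 286 and 307 CPM in NC libraries. The median log2 fold change of 0.05 moved to 0.35 without COL8A1 replicate 2 and to −0.19 without COL8A1 replicate 1. COL8A1 transcripts and HIF1A transcripts were also higher in COL8A1 replicate 1 than in replicate 2 (1.66-fold and 1.40-fold), and their part in this was not tested.

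CA9 (ENSG00000107159; chromosome 9, 35673856 to 35681159, plus strand) showed the widest gap, with 4.94 and 0.648 CPM in COL8A1 replicates 1 and 2 (157 and 18 counts), against 3.39 and 4.48 CPM in NC replicates 1 and 2 (104 and 151 counts). Its core motif is shown above. ARHGEF39, which overlaps it on the other strand, had 933 and 608 counts in the COL8A1 and 910 and 703 counts in the NC libraries. Without strand, reads from the bases that the pair shares cannot be told apart. The log2 fold change of −0.49 (SE 0.895, 95% interval −2.84 to 1.87) leaves a difference of either sign within the error.

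NDRG1 had 37.2 and 22.8 CPM in COL8A1 and 27.6 and 30.5 CPM in NC libraries. BNIP3L had 86.5 and 61.0 CPM in COL8A1 and 67.1 and 66.9 CPM in NC libraries. MXI1 had 21.4 and 15.8 CPM in COL8A1 and 18.2 and 17.8 CPM in NC libraries. These 3 shared the order of CA9, with the COL8A1 libraries outermost. BNIP3 had 92.9 and 72.0 CPM in COL8A1 and 88.2 and 102 CPM in NC libraries. KDM3A had 93.2 and 76.8 CPM in COL8A1 libraries, against 71.5 and 74.2 CPM in NC libraries, and was the only one of the 9 whose groups did not overlap. Its log2 fold change was 0.22 (SE 0.118, edgeR adjusted p = 0.835). ADM and CA12 were at 1.51 to 6.61 CPM and overlapped between the groups, and so did ANKRD37, which overlaps UFSP2 on the other strand.

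**Figure D4:**
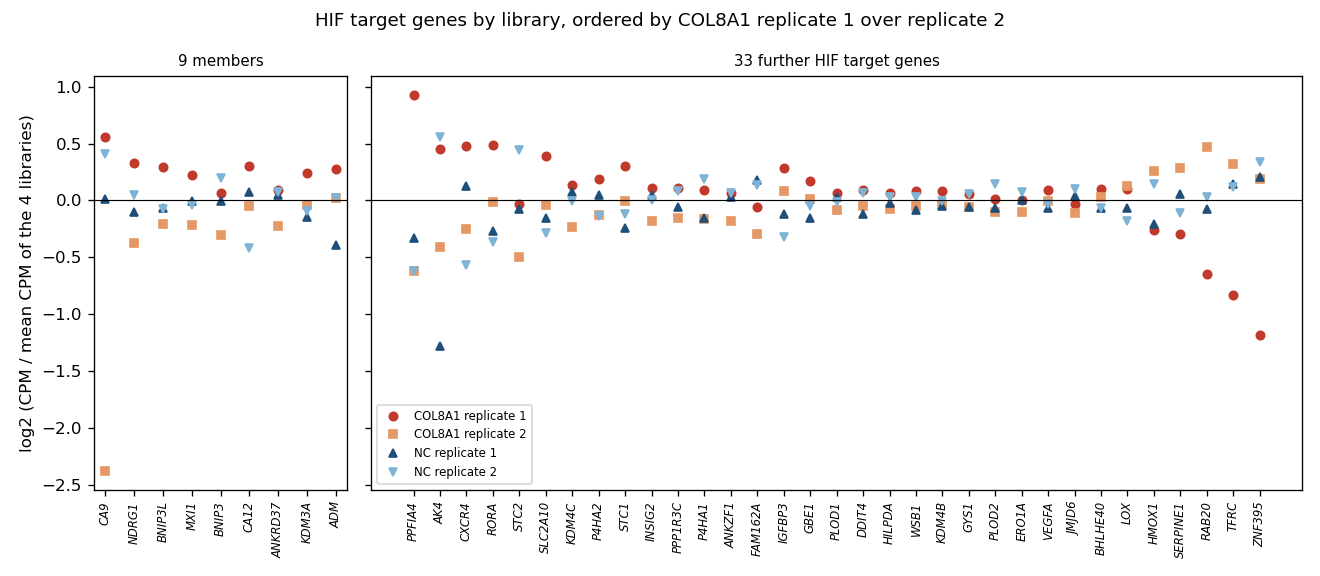
Log2 of CPM over the mean CPM of the 4 libraries, with genes ordered by COL8A1 replicate 1 over replicate 2. Shown are the 9 tested members listed as other HIF targets (left) and 33 further HIF targets (right). On the left COL8A1 replicate 1 lies above replicate 2 in 9 of 9 genes and on the right in 27 of 33.

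Of the 39 members, 6 had libraries of a group over 2-fold apart, as did 16.6% of all genes tested and 5.12% of those with a mean of 100 counts or more. They were VHL, SLC2A1, SLC16A3, EGLN3, ALDOC and CA9, and in each of them the COL8A1 libraries were the ones apart. COL8A1 replicate 1 was the higher in EGLN3, ALDOC and CA9 and the lower in VHL, SLC2A1 and SLC16A3. SLC2A1, EGLN3 and SLC16A3 are all known HIF targets, so the HIF targets with the widest gaps did not share 1 direction.

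**Figure D5:**
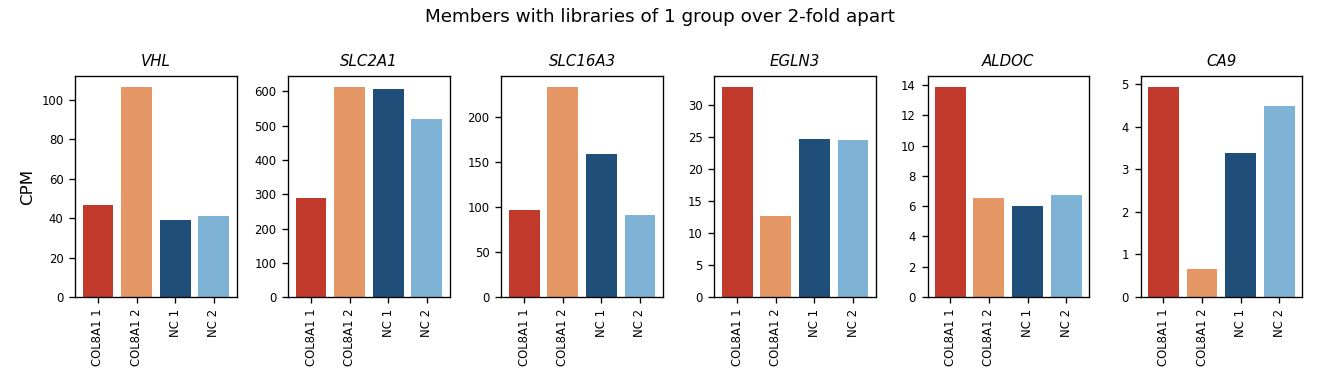
CPM of the 6 members whose libraries of a group lay over 2-fold apart, 1 bar per library, each panel with its own axis from 0. The 2 COL8A1 libraries differ in every panel, while the NC libraries lie within 1.74-fold of each other.

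A list of 76 other genes of the same pathways was set beside the members, made of further HIF subunits and their regulators, glycolysis paralogs, pyruvate dehydrogenase and its kinases, and further HIF targets. Of these 66 were tested and 0 passed the edgeR threshold (smallest adjusted p 0.784) or the DESeq2 threshold. At an unadjusted p under 0.05 there were 3 higher and 0 lower in COL8A1 cells, against 3.44% and 2.63% of all genes. They were all HIF targets, the role of 33 of the 66 genes tested. Their unadjusted edgeR p-values were 0.0336 for IGFBP3, 0.04995 for STC1 and 0.0495 for RORA, the last 2 of them just under the limit. IGFBP3, which binds insulin-like growth factors, had 30.6 and 26.7 CPM in COL8A1 and 23.3 and 20.1 CPM in NC libraries (log2 fold change 0.40, SE 0.135, edgeR adjusted p = 0.784). STC1, a secreted glycoprotein, had 159.9 and 129 CPM in COL8A1 and 109 and 119 CPM in NC libraries (0.34, SE 0.128, edgeR adjusted p = 0.816). RORA, a nuclear receptor, had 13.7 and 9.72 CPM in COL8A1 and 8.12 and 7.62 CPM in NC libraries (0.57, SE 0.218, edgeR adjusted p = 0.816). In all 3 both COL8A1 libraries were above both NC libraries, where 18.9% of all genes tested did so. This order is not separate from the small p-values.

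The gap between the COL8A1 libraries extended to these other HIF targets in part. Of the 33 tested, 27 (81.8%) were higher in COL8A1 replicate 1 than in replicate 2, by a median of 1.11-fold over the 33, and 13 were higher in NC replicate 1 than in replicate 2. They are counted in the same libraries, so these are not separate observations. In the other roles of this list COL8A1 replicate 1 was higher in 1 of 1 HIF subunit and 3 of 9 oxygen-sensing genes. It was higher in 4 of 10 glycolysis genes and 4 of 13 pyruvate and lactate genes. VEGFA, the main angiogenic factor of glioblastoma, had 264 and 247 CPM in COL8A1 and 237 and 243 CPM in NC libraries, a gap far narrower than that of CA9. TFRC, the transferrin receptor, went the other way, with 499 and 1106 CPM in COL8A1 replicates 1 and 2, against 979 and 959 CPM in NC replicates 1 and 2. Its pattern over the libraries was that of SLC2A1.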

How the data were processed

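Total RNA of 2 COL8A1 and 2 NC libraries was analysed from the raw read counts per gene that the authors deposited, without normalization. Per the submitters' processing notes the tools were HISAT2 2.2.1, Trim Galore 0.6.9 and featureCounts (version given as 0.3), with hg38 as build. How reads were counted (strand, multiple hits, annotation release) is not given in the sources used here. Reads from bases that a gene shares with an antisense partner therefore cannot be assigned to either here. Reads of near-identical copies or overlapping genes (GAPDH, PGK1, LDHA, ENO1, TPI1, BNIP3, and MIF among the other genes) are also uncertain. Of 61806 genes, 58254 were placed with GENCODE release 29, and 1 line that was no gene was left out. Groups and replicate numbers follow the sample titles.

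edgeR 4.0.16 in R 4.3.3 was run with filterByExpr, TMM factors and the group as only term (17030 genes, 2 residual and 2.64 prior degrees of freedom). SE is the absolute log2 fold change over the square root of F and restates the test. CPM use TMM-scaled library sizes. On simulated counts for this comparison (16533 genes tested, 100 changed at each fold) edgeR recovered 57% of 2-fold and 97% of 4-fold changes, and DESeq2 1.42.0 recovered 65% and 99%. These counts were drawn from the dispersion trend alone, without its spread from gene to gene, and genes of low CPM were not changed. The shares therefore do not give the recovery in the real libraries, where COL8A1 itself, at 43.8-fold by mean CPM, missed the edgeR threshold. PCR copies count as separate reads. Alternatives were other scalings, filters, the replicate number as a block, DESeq2, limma-voom (limma 3.58.1) and each library left out.

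The 40 members and the lists were chosen with earlier results of these data known. Values per library are given for members with an unadjusted edgeR p under 0.05, with libraries of a group over 2-fold apart, at the highest level of their role or central to HIF, and others were chosen after their values were seen.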

Additional observations from a re-analysis of the deposited data

How the results depend on the processing

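No member and no other pathway gene passed under any of the alternatives run, and the lowest adjusted p of a member was 0.150 (VHL without COL8A1 replicate 1). Over all genes, calls numbered 2, but 17 without a low-count filter, 145 in DESeq2, 1 with the replicate block and 0 to 3 with a library left out. The replicate numbers carry no stated pairing (the difference of replicates 1 and 2 correlated at −0.036 between the groups over the genes tested), and the block left 0 members past the threshold, with medians of −0.05 for the glycolytic enzymes and 0.03 for the other HIF targets. The median of the enzymes stayed between −0.07 and −0.04 with a library left out, and that of the other HIF targets ranged from −0.19 to 0.35. With 1 library in a group, that library is assumed to vary like the rest. EGLN1 turned to −0.0013 without a low-count filter. The sign of 23 members held whichever library was left out. For the other 16 the log2 fold changes ranged from −0.043 to 0.27 (EPAS1), −0.082 to 0.089 (EGLN1), −0.96 to 0.42 (EGLN3), −0.96 to 0.12 (SLC2A1), −0.13 to 0.19 (HK1), −0.088 to 0.096 (PFKL), −0.57 to 0.068 (ENO2), −0.20 to 0.21 (PFKFB4), −0.066 to 0.025 (LDHB), −0.32 to 0.32 (PDK1), −0.38 to 0.90 (SLC16A3), −2.60 to 0.32 (CA9), −0.14 to 0.36 (BNIP3L), −0.35 to 0.35 (NDRG1), −0.29 to 0.027 (ANKRD37) and −0.19 to 0.25 (MXI1). Added after seeing the data, the sum of ALDOA with its overlapping gene gave the adjusted p 0.993. At this depth and with 2 libraries a group, 57% of simulated 2-fold changes were recovered by edgeR. The simulation left out the spread of dispersion from gene to gene, so this share does not give the recovery in the real libraries and may be too high. COL8A1 itself missed the edgeR threshold, with an adjusted p of 0.0681.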

Other observations

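Among the other pathway genes, PDP1 and GPD1L had NC replicate 1 apart from the other 3 libraries, and AK4 and CITED2 were uneven in both groups. PDP1, the phosphatase that switches pyruvate dehydrogenase on, had 113 and 119 CPM in COL8A1 libraries, against 399 and 139 CPM in NC replicates 1 and 2. AK4, a mitochondrial adenylate kinase, had 34.8 and 19.2 CPM in COL8A1 and 10.5 and 37.5 CPM in NC libraries. GPD1L, a glycerol 3-phosphate dehydrogenase, had 62.1 and 60.9 CPM in COL8A1 and 20.8 and 66.5 CPM in NC libraries. CITED2, which competes with HIF for its coactivators, had 45.3 and 16.9 CPM in COL8A1 and 18.0 and 40.4 CPM in NC libraries.

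Of the 10 other pathway genes that were not tested, HIF3A, HK3, PKLR and LDHC had 0 counts in all libraries. MIF, a cytokine and HIF target, had 9 and 6 counts in COL8A1 and 6 and 8 counts in NC libraries. How reads with several matches or overlapping genes were counted is unknown here, so the level of MIF is uncertain.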
